A study of Mus musculus with 3 samples.

Results

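Interleukin-10 (IL-10), its receptor and the JAK-STAT genes that carry its signal were followed in LNC, a malignant B-1 cell line taken from the lymph node of a 1 year old New Zealand Black (NZB) mouse. The members are all probe sets annotated to 9 gene symbols, Il10, Il10ra, Il10rb, Jak1, Tyk2, Stat3, Socs1, Socs3 and Cish, and include the array's own control probe set for murine Il10. They were chosen by symbol because IL-10 is the target of the antisense oligonucleotide, and they comprise 9 of the 8220 genes with a probe set of their own and 11 of the 12654 probe sets on the array. RNA was hybridised to 3 Affymetrix arrays, 1 per group. The groups are LNC cells given an IL-10 antisense oligonucleotide at 20 µM, LNC cells given a scrambled version of that oligonucleotide at 20 µM as a control for effects unrelated to its sequence, and untreated LNC cells. The labels give 24 h as the time of RNA collection. All 3 descriptions open with the same sentence on antisense treatment, and the groups come from the titles and from the sentence after it. All groups come from the same line, so the model is 1 line from 1 mouse.

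IL-10 binds a receptor of 2 chains, of which IL-10RA binds the cytokine with high affinity and IL-10RB is shared with receptors of related cytokines. The kinases JAK1 and TYK2 sit on these chains and phosphorylate STAT3, which enters the nucleus and switches on target genes. Among the genes that STAT proteins induce are SOCS1, SOCS3 and CISH, inhibitors that act back on cytokine receptors and JAKs. Malignant B-1 cells of NZB mice are known to secrete IL-10 and to depend on it for growth.

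Of the 10 probe sets that are not array controls, 6 read above the noise floor on all 3 arrays, 1 did so on some of them and 3 did so on none. The floor is an intensity of 595.9, below which a value cannot be told from noise, and values below it were set to it before log2 was taken. With 1 array per group there is no spread to test against, so p-values are absent here. Differences were instead set beside an error yardstick. For each probe set it is the size that 95% of its 300 closest neighbours by mean level stay under when scrambled and untreated cells are compared on the log2 scale. The yardstick contains any effect of the scrambled oligonucleotide, and since it is built from that comparison, a small share of differences between these 2 arrays exceeds it by construction. Intensities of different probe sets are not comparable with each other, so levels are compared between arrays only.

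Il10, the targeted gene and the ligand of the pathway, read highest on the array labelled antisense. Its main probe set had a scaled intensity of 13946 on the array labelled antisense, against 5616 for scrambled and 5164 for untreated cells. The controls lay close together and the array labelled antisense stood well above both. The log2 difference of the array labelled antisense was 1.31 from scrambled and 1.43 from untreated, against a yardstick of 0.40. The scrambled array differed from untreated by 0.12, within the yardstick. Among the 300 probe sets nearest in level, 0 were as far above both controls, a count added after these values were seen.

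The control probe set for Il10, AFFX-MurIL10_at, gave the same order of arrays with smaller differences. It read 6341 on the array labelled antisense, against 3967 for scrambled and 3393 for untreated cells. The log2 difference of the array labelled antisense was 0.68 from scrambled and 0.90 from untreated, against a yardstick of 0.56. Among its 300 nearest probe sets, 3 were as far above both controls. In fold terms the array labelled antisense exceeded untreated by 2.70-fold in the main probe set and by 1.87-fold in the control probe set, so both probe sets gave a higher level and not the same size of difference.

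A higher Il10 level is not the direction of a loss of the targeted RNA, so this array is called the array labelled antisense throughout. Each direction given below rests on that label. These are values of RNA only, and the IL-10 protein was not measured here. In bulk RNA, a change in the share of cells that express a gene and a change in RNA per cell cannot be told apart.

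**Figure D1:**
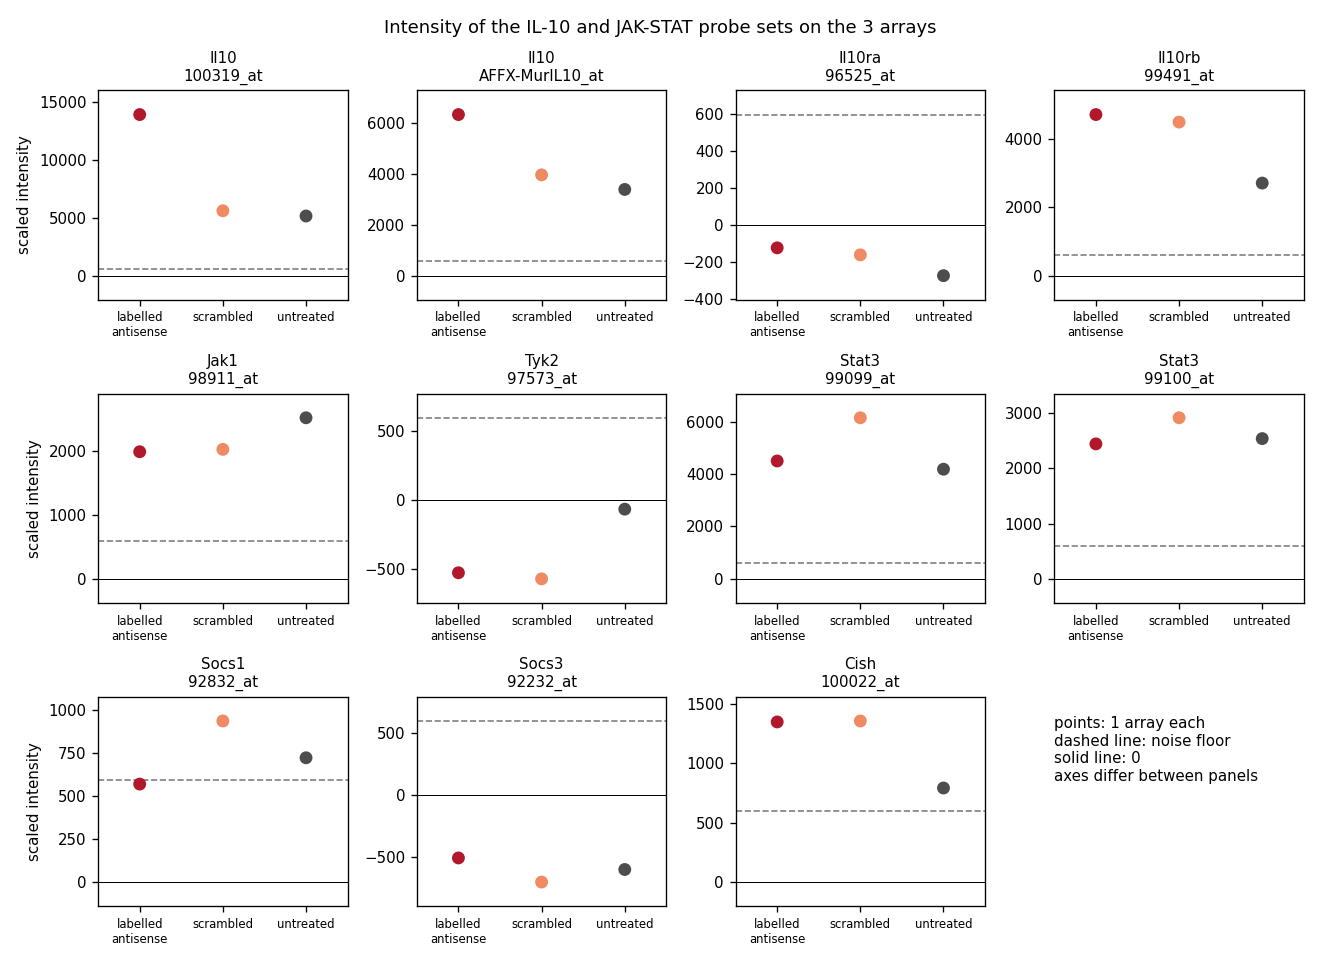
Scaled intensity (linear, arbitrary units) of the 11 probe sets on the array labelled antisense, the scrambled array and the untreated array, 1 point per array, with the noise floor of 595.9 as a dashed line and a separate axis in each panel. Both Il10 probe sets are highest on the array labelled antisense, Il10rb is lowest on the untreated array, and Il10ra, Tyk2 and Socs3 lie below 0 on all 3 arrays.

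The receptor chains read differently from each other and from the ligand. Il10ra, the ligand-binding chain, read -124 on the array labelled antisense, against -162 for scrambled and -274 for untreated cells. Its only probe set thus gave no signal above noise on any array, and no comparison was possible. A probe set at this level does not show that the transcript is absent.

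Il10rb, the shared chain, was higher on both arrays of oligonucleotide-treated cells than on the untreated array. It read 4723 on the array labelled antisense, against 4502 for scrambled and 2714 for untreated cells. The 2 treated arrays were close to each other and the untreated array was apart from both. The log2 difference from untreated was 0.80 for the array labelled antisense and 0.73 for the scrambled array, each above the yardstick of 0.63. The array labelled antisense differed from scrambled by 0.07, within the yardstick, and by 0.58 with scaling to spike-in controls.

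Il10rb was the 1 probe set among the 7 members past the filter for which both oligonucleotide arrays exceeded untreated by more than the yardstick. Over all 6127 probe sets past the filter, which asks for a value above the floor on at least 1 array, 36 met this rule, or 0.588%. This rule was written after the Il10rb values were seen, so the count describes them. Another 28, or 0.457%, were lower on both oligonucleotide arrays by the same rule, with no member among them. Both comparisons share the untreated array, so they are not separate evidence. Among the 300 probe sets nearest to Il10rb in level, 1 was as far above untreated on both oligonucleotide arrays.

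The kinase genes showed no difference above the yardstick. Jak1, whose kinase binds the IL-10RA chain, read 1989 on the array labelled antisense, against 2026 for scrambled and 2520 for untreated cells. Both oligonucleotide arrays were lower than untreated, by log2 differences of -0.34 and -0.31, against a yardstick of 0.77, and with scaling to spike-in controls the first turned to 0.29. Tyk2, whose kinase binds the IL-10RB chain, read -529 on the array labelled antisense, against -573 for scrambled and -67.4 for untreated cells. Its probe set therefore gave no usable value for Tyk2 on any array.

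Stat3, the transcription factor of the pathway, read highest on the scrambled array in both of its probe sets. The brighter read 4502 on the array labelled antisense, against 6153 for scrambled and 4188 for untreated cells. The dimmer read 2445 on the array labelled antisense, against 2918 for scrambled and 2540 for untreated cells. The array labelled antisense and the untreated array had log2 differences of 0.10 and -0.06, and with scaling to spike-in controls these were 0.73, past the yardstick of 0.51, and 0.57, with the sign turned.

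Against the scrambled array, Stat3 on the array labelled antisense differed by -0.45 in the brighter and by -0.26 in the dimmer, both within yardsticks of 0.51 and 0.75, and with scaling to spike-in controls these values turned to 0.06 and 0.26. The scrambled array exceeded untreated by 0.56 in the brighter, slightly above the yardstick, and by 0.20 in the dimmer, within it. The 2 probe sets shared the order of the scrambled array over the others, while only 1 of them passed the yardstick.

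The feedback inhibitors were dim. Cish, which binds activated cytokine receptors, read 1348 on the array labelled antisense, against 1356 for scrambled and 792 for untreated cells. Both oligonucleotide arrays were higher than untreated, by log2 differences of 0.77 and 0.78, but the yardstick at this level was 1.24. The array labelled antisense and the scrambled array differed by -0.01, and by 0.50 with scaling to spike-in controls. The order of the arrays was thus close to that of Il10rb, with a difference that lay within the error.

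Socs1, an inhibitor of JAK kinases, read 569.7 on the array labelled antisense, which is below the floor, against 937 for scrambled and 723 for untreated cells. The array labelled antisense was at least 1.57-fold lower than scrambled and at least 1.21-fold lower than untreated, where the yardstick corresponds to 1.92-fold. These are bounds, so neither can be placed inside or outside the yardstick. Among the 300 probe sets nearest in level, 1 was as low against both controls. The floor keeps this count small, since no neighbour of the same mean level can go below it, so the count carries no weight. With scaling to spike-in controls the difference from untreated turned to 0.29. Socs3, which STAT3 induces and which blocks receptors of the IL-6 family, read -505 on the array labelled antisense, against -699 for scrambled and -598 for untreated cells, below 0 on each.

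Short stretches from the promoters of Cish and Socs3 are shown because they hold letters that STAT proteins are known to bind, and these genes are known to follow STAT activity. Promoters of 6 of the 9 members were matched by symbol in the RefSeq table (GRCm38.p6), each with 250 bases before and 50 after the start. The motif TTCNNNGAA, which reads the same on both strands, was found in 8.3% of the 32851 promoters in the table, and was chosen after the values were seen. Matches are in capitals, 5′ to 3′ in the direction of the gene.
Cish, chr9:107296654-107296683, plus strand: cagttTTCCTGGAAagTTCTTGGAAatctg
Socs3, chr11:117969501-117969530, minus strand: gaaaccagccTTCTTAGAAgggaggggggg

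In Cish, 2 copies that do not overlap begin at bases 1 and 12 from the start of the gene. In Socs3, 1 copy begins at base -154, before the start. The windows of Jak1, Tyk2, Stat3 and Socs1 did not hold these letters. The matches describe the reference sequence, and no binding was measured.

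Taking the members together, 1 of the 7 probe sets past the filter exceeded both controls at least 2-fold on the array labelled antisense, and this was Il10. Over all 6127 probe sets the share was 1.35% for at least 2-fold higher and 1.06% for at least 2-fold lower, and 0 members were lower. With the arrays scaled to spike-in controls these shares were 8.37% and 0.304%. By the yardstick, 1 member, again Il10, exceeded both controls, beside 2.76% of all probe sets higher and 2.5% lower. Against scrambled alone 1 member was 2-fold higher (3.2% of all) and 0 were lower (2.82%). Against untreated alone 1 was higher (2.64%) and 0 were lower (2.2%). Between scrambled and untreated, 0 members were 2-fold higher (1.7%) or lower (1.4%).

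The median log2 difference over the 10 member probe sets without the array control was 0.00 for the array labelled antisense against untreated and 0.00 against scrambled, with probe sets below the floor counted as 0. It was 0.16 for scrambled against untreated, and over all probe sets it was 0.00 in each comparison. Of the 7 past the filter, 6 were higher in scrambled than in untreated cells and 1, Jak1, was lower. Both Stat3 probe sets are among the 6, and only Il10rb and the brighter Stat3 probe set passed the yardstick. The same count over all probe sets was not made, so the 6 are a description.

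**Figure D2:**
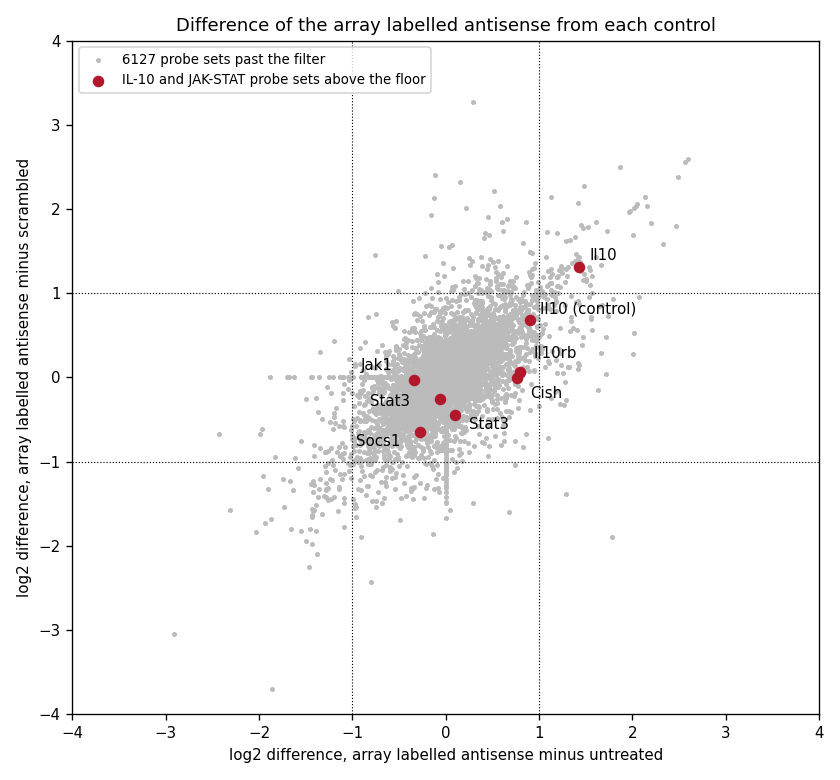
Log2 difference of the array labelled antisense from untreated (horizontal axis) and from scrambled (vertical axis), with the 6127 probe sets past the filter in grey, the member probe sets above the floor in red and dotted lines at a 2-fold difference. Il10 lies past 2-fold on both axes, Il10rb and Cish lie to the right near 0 on the vertical axis, and the 2 axes share the array labelled antisense.

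**Figure D3:**
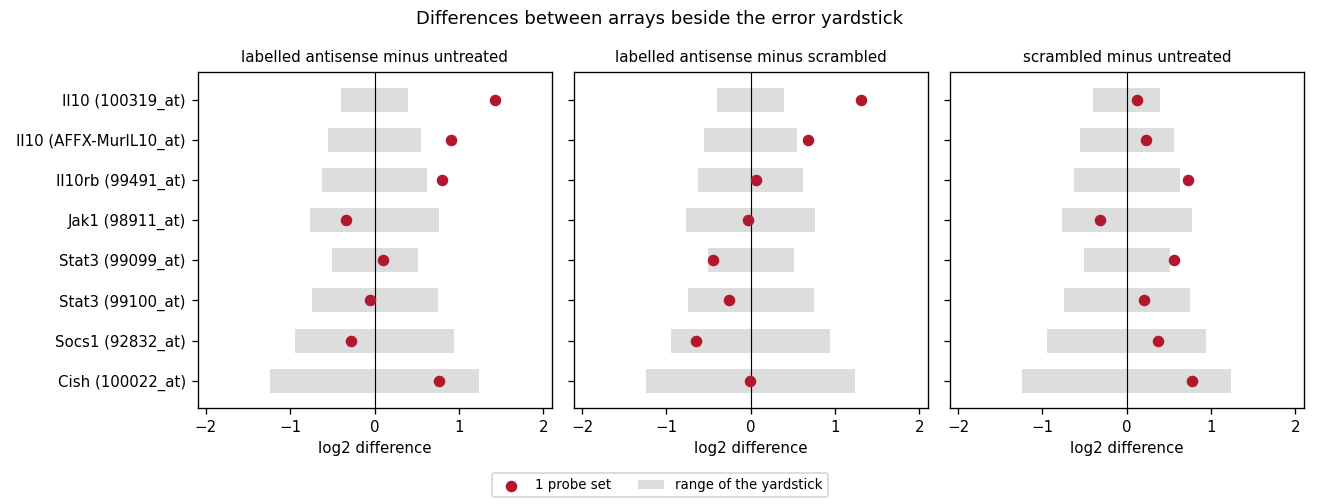
Log2 difference between arrays in each comparison for the 8 member probe sets above the floor (points), with the range from minus to plus the yardstick as grey bars. Both Il10 probe sets leave the bar in the first 2 panels, Il10rb leaves it in both comparisons with untreated, the brighter Stat3 leaves it for scrambled against untreated, and Jak1 and Cish stay within it in all 3, while the Socs1 points for the array labelled antisense are bounds.

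Further genes of the pathway were taken from lists chosen by function. Of their 27 probe sets, 16 were above the floor on at least 1 array. Among these, 0 were 2-fold apart from both controls, beside 1.35% of all probe sets past the filter higher and 1.06% lower. With so few probe sets, a count of 0 is near these shares. The lists of JAKs and STATs, negative regulators, IL-10 family cytokines and class II cytokine receptors name 38 genes, of which 21 were measured and 15 had a probe set above the floor on at least 1 array. The IL-10 relatives Il19, Il20, Il22, Il24, Ifnl2 and Ifnl3 were not measured here.

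Among the 6 JAKs and STATs measured, 5 had a probe set above the floor. Jak3, the kinase of the common gamma chain, read 2918 on the array labelled antisense, against 1708 for scrambled and 2329 for untreated cells. Its log2 difference was 0.77 from scrambled, above the yardstick of 0.68, and 0.33 from untreated, within it, and with scaling to spike-in controls both were past it, at 1.29 and 0.96. The Jak3 probe set carries the suffix _s, which marks probes shared with other transcripts. Stat5a, which carries signals of other cytokines to genes such as Cish, disagreed between its probe sets. The brighter differed by -0.57 from scrambled and -0.13 from untreated, and the dimmer by 0.13 and 0.87, all within the yardsticks. That dimmer probe set carries the suffix _f, which marks sequence shared by a family. Stat6, the factor of IL-4 signalling, differed by -0.16 from scrambled and -0.28 from untreated, within a yardstick of 0.75. Stat5b differed by 0.14 from scrambled, within its yardstick of 0.73, and was at least 1.32-fold higher than untreated, where it was below the floor. Stat4 read above the floor on the scrambled array alone, at 773, and both Jak2 probe sets were below the floor throughout. The median over the 6 genes was -0.08 against scrambled and 0.00 against untreated, with genes below the floor on both arrays compared counted as 0.

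Among the 11 negative regulators measured, 8 had a probe set above the floor, and Ptpn6 was the 1 gene beyond the yardstick against both controls. Over all probe sets past the filter, 2.76% were higher and 2.5% lower by that rule. Ptpn6 encodes SHP-1, a phosphatase that restrains JAKs and the B cell receptor. It read 15617 on the array labelled antisense, against 20043 for scrambled and 20854 for untreated cells. The log2 difference was -0.36 from scrambled and -0.42 from untreated, against a yardstick of 0.33, and with scaling to spike-in controls it turned to 0.15 and 0.21. The probe set carries the suffix _s, which marks probes shared with other transcripts.

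The other regulators lay within the yardstick against both controls. Socs5 read 755.9 on the array labelled antisense, against 1564 for scrambled and 835 for untreated cells, a log2 difference of -1.05 from scrambled and -0.14 from untreated, against a yardstick of 1.19. The phosphatase gene Ptpn1 differed by 0.01 from scrambled and -0.04 from untreated, and the adaptor gene Sh2b3 by 0.04 and -0.04. Ptpn2 differed by -0.31 and -0.35, Ptprc, the CD45 gene, by 0.43 and -0.16, Pias1 by 0.31 and 0.10 and Pias2 by 0.32 and 0.31. Socs2, Ptpn11 and Pias3 were below the floor on the 3 arrays. The median over the 11 genes was 0.00 against scrambled and -0.04 against untreated, with genes below the floor on both arrays compared counted as 0.

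Of the 4 class II cytokine receptor genes measured, which encode chains related to the IL-10 receptor, 2 were above the floor, and only on the array labelled antisense. Ifnar1, a chain of the type I interferon receptor, read 823 there and below 0 on both controls, at least 1.38-fold higher. Ifnar2, its partner chain, read 869.9 there, against 475 for scrambled and 565 for untreated cells, at least 1.46-fold higher. Both are bounds, since both controls are below the floor, and cannot be placed inside or outside the yardstick. With the floor at 1 robust standard deviation the log2 difference of Ifnar1 was 1.47 from each control, and that of Ifnar2 was 0.87 from scrambled and 0.62 from untreated. The median over the 4 genes, which counts such bounds as values, was 0.23 against each control. Ifngr1 and Ifngr2 were below the floor throughout.

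Genes reported as targets of STAT3 or IL-10 were listed next. Of 26 measured, 20 had a probe set above the floor, 3 genes exceeded both controls at least 2-fold on the array labelled antisense, and 0 were 2-fold lower. The median was 0.00 in each comparison, as over all 8220 genes. Genes below the floor on both arrays compared count as 0 in each median, so the shared value carries no weight. In probe sets, 5 of the 28 past the filter were higher, both of Pim1, both of Cdkn1a and that of Prdm1. Over all probe sets past the filter 1.35% were higher and 1.06% lower, and 8.37% were higher with scaling to spike-in controls. The list was chosen with earlier results of these data known, so the counts are a description. Pim1, a survival kinase gene that STAT3 induces, read 17982 on the array labelled antisense, against 7444 for scrambled and 6134 for untreated cells. Cdkn1a, the p21 cell-cycle inhibitor gene, differed by 1.34 from scrambled and 1.67 from untreated in its brighter probe set. The dimmer read 3595 on the array labelled antisense, against 316 for scrambled and 325 for untreated cells, both below the floor. It thus passed the filter through the array labelled antisense alone, as did the probe set of Prdm1.

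Prdm1, the Blimp-1 gene of plasma cell differentiation, read 1298 on the array labelled antisense against 472 for scrambled and 587 for untreated cells, both below the floor. It was at least 2.18-fold higher, a log2 difference of 1.12 against a yardstick of 1.10, and with the floor at 3 robust standard deviations the difference was 0.54. Bcl3 read 358 on the array labelled antisense, below the floor, against 1002 for scrambled and 1748 for untreated cells. It was at least 1.68-fold lower than scrambled and at least 2.93-fold lower than untreated, where the yardstick corresponds to 2.28-fold. Bcl2l1 was higher, by log2 differences of 0.72 from scrambled and 1.34 from untreated, against a yardstick of 0.82. The brightest targets showed little difference. Mcl1, which restrains apoptosis, differed by 0.03 from scrambled and -0.05 from untreated, the cyclin gene Ccnd2 by 0.02 and 0.12, and the cell-cycle inhibitor gene Cdkn1b by -0.02 and 0.00.

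Transcription factors reported to act at the Il10 gene were listed because the Il10 RNA itself differed, and with earlier results of these data known. Of 24 measured, 15 had a probe set above the floor. By the yardstick, 4 genes exceeded both controls on the array labelled antisense and 0 were lower, counted on the brightest probe set of each gene. Of all probe sets past the filter, 2.76% were higher and 2.5% lower. These shares count probe sets and not genes, so the 2 are not the same measure. The median over the 24 was 0.00 against each control, with genes below the floor on both arrays compared counted as 0. Irf4, an interferon regulatory factor of B and plasma cells, read 24443 on the array labelled antisense, against 16268 for scrambled and 15737 for untreated cells, differences of 0.59 and 0.64 against a yardstick of 0.34. Nfatc1, a calcium-regulated factor, read 3124 on the array labelled antisense, against 1205 for scrambled and 1151 for untreated cells. Egr1, an immediate-early factor, exceeded scrambled by 1.93-fold and untreated by 2.89-fold. Prdm1, above the floor on the array labelled antisense alone, is the fourth. The brightest others, Jund and Rela, differed by -0.12 and -0.18 from scrambled and by 0.05 and 0.29 from untreated, within the yardsticks. Maf, a factor known to drive Il10 in T cells and macrophages, was below the floor on all 3 arrays.

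**Figure D4:**
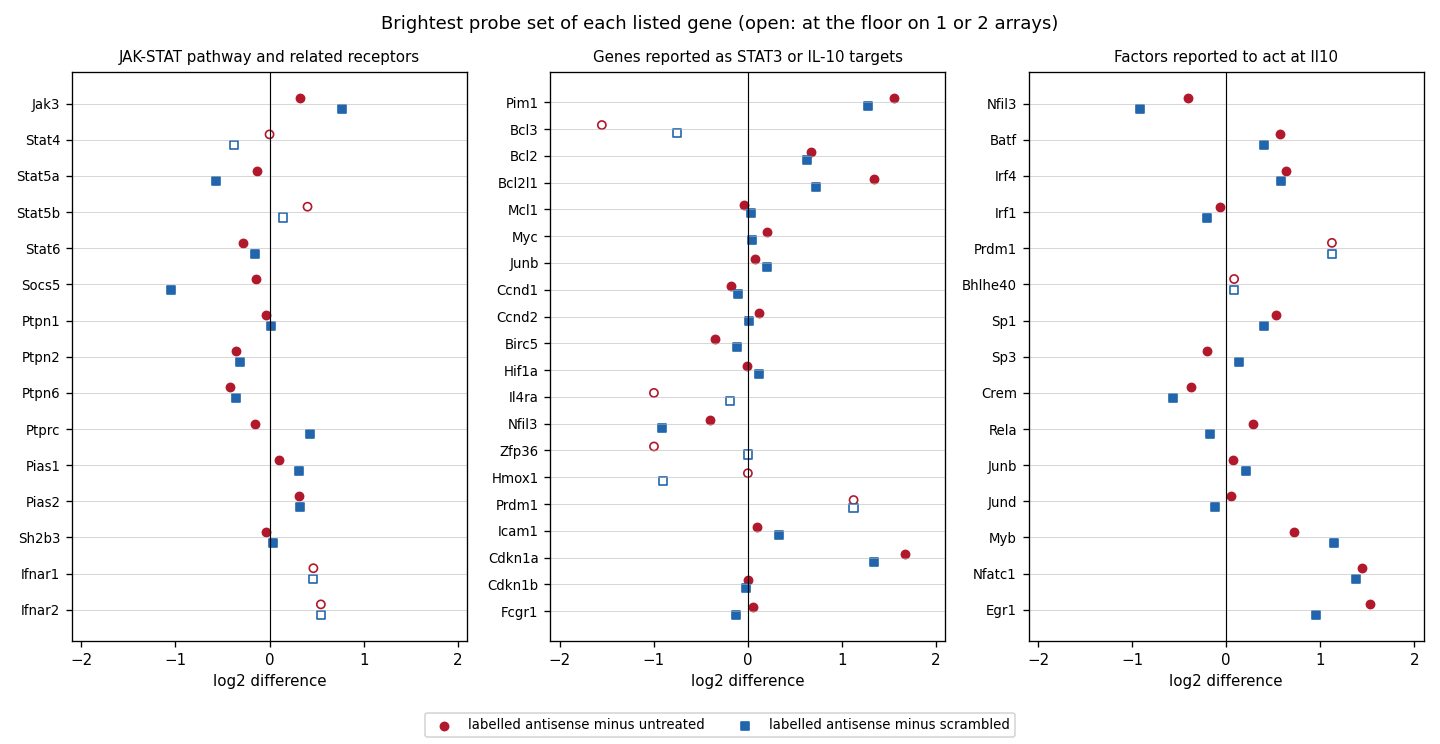
Log2 difference of the array labelled antisense from untreated (circles) and from scrambled (squares) for the brightest probe set of each listed gene that is above the floor on at least 1 array, with open symbols where 1 or 2 arrays are at the floor. JAK-STAT pathway genes scatter around 0, and Pim1, Cdkn1a, Bcl2l1, Prdm1, Nfatc1 and Egr1 lie to the right. Bcl3, below the floor on the array labelled antisense, lies to the left.

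The probe sets most like Il10 were sought by the distance between their 2 log2 differences and those of the main Il10 probe set, over 3 arrays. Ranked were the 3955 probe sets above the floor on each array that have 1 symbol and are not of a member. The nearest 6 were Bgn, the gene of the matrix proteoglycan biglycan, at a distance of 0.06, Nfatc1 at 0.06, Pim1 at 0.12, the adhesion receptor gene Adgrd1 at 0.16, the immediate-early gene Ier3 at 0.16 and 1700073E17Rik at 0.17. The probe sets of Bgn and 1700073E17Rik carry the suffix _f, which marks sequence shared by a family. A likeness over 3 arrays rests on few values and is a description.

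The labelled cell type was checked against marker genes. Of 5 B cell markers measured, 4 were above the floor. Cd79a and Ms4a1 read lower on the array labelled antisense, by -0.50 and -0.53 from scrambled and -0.37 and -0.51 from untreated, and with scaling to spike-in controls all of these but that of Ms4a1 from scrambled turned positive. Blnk, an adaptor of the B cell receptor, differed by 0.05 from scrambled and 0.22 from untreated, and Cd79b by 0.15 and 0.11, within the yardsticks of 0.33 and 1.06. The B-1 markers Cd5, Spn and Itgam were below the floor on all 3 arrays, so these probe sets do not show B-1 identity. Of markers of other cells, 1 of 6 T cell, 3 of 5 macrophage, 2 of 4 neutrophil, 1 of 2 dendritic and 1 of 3 fibroblast genes were above the floor on any array, while Cd3e, Lyz2, Adgre1, S100a8 and Col3a1 were at the floor throughout. Sums of marker intensities were also taken, with each value below the floor counted as 0. For macrophage markers the sum was 2419 on the array labelled antisense, against 2331 for scrambled and 3865 for untreated cells. Among them Cd14 differed by -0.52 from scrambled and -0.92 from untreated and Cd68 by 0.79 and 0.64, within yardsticks of 1.04 and 1.15, and Csf1r was above the floor in untreated cells alone, at 949. The T cell marker Cd4, the 1 above the floor, read 1266 on the array labelled antisense, against 2339 for scrambled and 1349 for untreated cells. For neutrophil markers the sum was 1393 on the array labelled antisense, against 769 for scrambled and 773 for untreated cells. It holds Elane, which differed by -0.12 and -0.13, and Mpo, which was above the floor on the array labelled antisense alone, at 688. Mpo read 338 for scrambled and 328 for untreated cells and counts there as 0. The sum is thus higher because 1 probe set crossed the floor. Flt3, listed for dendritic cells, read 7906 on the array labelled antisense, against 7301 for scrambled and 7404 for untreated cells in its brighter probe set. The dimmer went the other way, by -0.67 from scrambled and -0.53 from untreated, within a yardstick of 0.87. The fibroblast marker Col1a1 read 829 on the array labelled antisense, against 1006 for scrambled and 997 for untreated cells. The part of these cells in the member values was not tested.

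RNA measures also moved with the array that carries the Il10 difference. The 3-prime over 5-prime ratio of the 18S ribosomal RNA control was 8.13 on the array labelled antisense, against 4.48 for scrambled and 1.72 for untreated cells, while for actin and Gapdh it lay between 0.920 and 1.01. The mean log2 level of 6 bacterial spike-in probe sets was lower on the array labelled antisense, by -0.51 from scrambled and -0.63 from untreated. Their part in the Il10 and Il10rb differences was not tested.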

How the data were processed

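Probe set intensity on a linear scale was deposited by the authors in 1 table, and from the values each array's 2% trimmed mean is 1500. No source used here names the software behind it. On each array 24.8% to 27.9% of values lie at or below 0. Arrays were brought to a common 2% trimmed mean over the 12588 probe sets other than controls, floored at 2 robust standard deviations of the values below 0, and log2 was taken (Python 3.11.15, numpy 2.4.6, pandas 2.3.3). The 6127 probe sets above the floor on any array were kept. Symbols came from the platform annotation, updated through gene identifiers, for probe sets with 1 symbol. Precision is limited by having 1 array per group, and no source used here says whether an array held 1 culture or a pool.

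Named were all members, every measured gene of the pathway lists, genes of other lists past the fold or yardstick or among the 3 brightest, and the 6 probe sets nearest Il10. Cd79b, Tnf, Il12a, Bcl3, Bcl2l1 and some marker, cytokine and factor genes at the floor fall outside this rule and were named to describe a list. The scaling, floor and yardstick follow an earlier treatment of these data, and the members and lists were chosen with earlier results of these data known. The rule for both oligonucleotide arrays against untreated, the counts among 300 neighbours and the STAT motif were chosen after values were seen, and a further motif, for IRF factors, was searched and is not reported here. Counting was tested on simulated data. Alternatives were 2 other floors, 4 other scalings and 2 other filters.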

Additional observations from a re-analysis of the deposited data

How the results depend on the processing

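The 2 log2 differences of Il10, the 2 of Il10rb and the counts of members and pathway probe sets gave 56 values under 8 alternatives, of which 52 differences or counts shifted by less than the yardstick or 1.5 times and 4 by more. The 2 other filters cannot change these log2 differences. The 2 other floors cannot either, since every Il10 and Il10rb value lies above them. For the differences only the 4 other scalings could thus give a shift, and the 52 overstates how far they were tried. With scaling to spike-in controls, Il10 differed by 2.06 from untreated and 1.82 from scrambled, and Il10rb by 1.43 from untreated and 0.58 from scrambled, where the main value is 0.07 and the shift is as large as that of Il10 but under the wider yardstick of Il10rb. That scaling shifts the median of probe sets above the floor by 0.62 against untreated, 0.50 against scrambled and 0.13 between the controls, so each difference above includes such a shift. Without it, Il10 ranged from 1.41 to 1.43 against untreated and from 1.26 to 1.31 against scrambled. The count of pathway probe sets 2-fold apart from both controls was 1 with the floor at 1 robust standard deviation, that of Ifnar1, against 0. Spike-in scaling reversed Cd79a, to 0.26 against untreated and 0.008 against scrambled, Ms4a1, to 0.12 against untreated, and Ptpn6, to 0.21 and 0.15. Over all probe sets, 83 higher and 65 lower than both controls became 191 and 182 with the lower floor, 51 and 29 with the higher floor, 524 and 19 with spike-in scaling and 37 and 38 among probe sets above the floor on all arrays. No paired analysis was possible because each group has 1 array. Signal near the floor limits Socs1, Cish, Prdm1, Ifnar1 and Ifnar2.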

Other observations

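Other cytokine genes that B cells can make were mostly at the floor. Of 19 measured, 11 were below the floor on all 3 arrays, among them Il2, Il4, Il5, Il6 and Ifng. The median was 0.00 in each comparison, a value fixed by these genes, which are the majority and count as 0. Of the 19, 0 were 2-fold apart from both controls, beside 1.35% of all probe sets past the filter higher and 1.06% lower. By the yardstick against both controls, 2.76% of all probe sets past the filter were higher and 2.5% lower. Of these cytokine genes Tgfb1, whose product restrains lymphocytes, was the 1 beyond the yardstick against both controls. It read 2812 on the array labelled antisense, against 4443 for scrambled and 5405 for untreated cells, log2 differences of -0.66 and -0.94 against a yardstick of 0.56, and with scaling to spike-in controls both were within it, at -0.15 and -0.31. Ltb, the lymphotoxin beta gene, differed by 0.41 from scrambled, above its yardstick of 0.33, and by 0.20 from untreated. Lta, the lymphotoxin alpha gene, differed by -0.30 and -0.08 in its shared probe set, within the yardstick of 0.51. Tnf read 1575 on the array labelled antisense, against 837 for scrambled and 886 for untreated cells. Its log2 differences were 0.91 and 0.83, within a yardstick of 1.19. Il12a was above the floor on the array labelled antisense alone, at 899. It was at least 1.51-fold higher than each control, a bound that cannot be placed below or above 2-fold. Of the cytokine genes named here, Il10 alone, in its main probe set, was measured at 2-fold or more above both controls on the array labelled antisense.

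Plasma cell markers did not share the difference of Irf4 and Prdm1. Xbp1, a factor of plasma cells, differed by 0.02 from scrambled and -0.06 from untreated, Jchain, the joining chain gene, by -0.09 and -0.16, and Sdc1 was below the floor on the 3 arrays.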
